A study of Mus musculus with 4 samples.

Results

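HOXA5 is a homeodomain transcription factor that patterns the respiratory tract, where it is made by mesenchymal cells. Homeodomain proteins recognise short AT-rich cores, often next to a partner of the TALE homeodomain class, and many developmental factors of this kind bind enhancers inside introns or far from any gene end. Chromatin immunoprecipitation followed by sequencing (ChIP-seq) recovers DNA crosslinked to a protein, and a peak is an interval where that DNA exceeds the local background. The regions described here are distal peaks that were called in the replicate 1 immunoprecipitate and had no counterpart in replicate 2.

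The material was lung from mouse embryos at stage E15.5, genotype Hoxa5FLAG/FLAG, in which the endogenous Hoxa5 gene carries a FLAG epitope, and all 4 libraries share this genotype although their titles carry the abbreviation wt. Immunoprecipitation with an anti-FLAG antibody gave 2 libraries, and 2 input libraries accompanied them. Only the peak calls of the former were used, and inputs or an untagged control were not analysed here. Nothing in the labels tells separate litters or pools from repeat preparations, so differences between replicates may be technical. Peak names inside the list of replicate 2 carry the tag rep6 and not rep2. The labels were followed. Whole lung mixes mesenchyme, epithelium, vessels, nerve and blood, so peaks from fewer cells and weaker peaks in all cells cannot be told apart, and the peak lists hold no expression with which to check the tissue.

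Of 4289 replicate 1 peaks, 2094 did not overlap any of the 2832 replicate 2 peaks by 1 bp or more. Of these, 16 lay on chromosome Y or on scaffolds, 242 had their summit within 5 kb of an end of a protein-coding gene, and 1836 lay on chromosomes 1 to 19 or X with the summit over 5 kb from both ends of every protein-coding gene. The 1836 are called replicate 1 only peaks here. Shared peaks under the same distance rule numbered 1991, so 48.0% of distal replicate 1 peaks lacked a partner, against 49.0% of all replicate 1 peaks on these chromosomes. The regions were thus selected on the peak calls themselves, which fixes these shares, and nothing is read from them. The lists hold no reads and the depth of each library is unknown, so lack of a replicate 2 peak does not show lack of signal there. All positions are in mm10, which is the GRCm38 build of the RefSeq gene table.

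Some replicate 1 only peaks lay over or close to an annotated RNA start inside or between genes. For these the RefSeq promoter sequence shows part of what the peak covered. Of the 1836, 19 (1.03%) overlapped a RefSeq promoter window, which runs from 250 bases before to 50 bases after a start. Of the shared distal peaks, 20 (1.00%) did. Long noncoding RNA (lncRNA) starts accounted for 13 of the 19, and starts inside protein-coding genes for 6. The part of the window that lies under the peak and upstream of the start is printed for 5 of them. They were chosen after their values were seen, to show the peak of highest fold and the starts with a role in mesenchyme or signalling or with homeodomain cores. Capitals mark TAAT on either strand (TAAT or ATTA), the homeodomain core, except in Rarb, where they mark a pair of GTTCA half-sites.
Gm35551, chr17:84044587-84044818, minus strand: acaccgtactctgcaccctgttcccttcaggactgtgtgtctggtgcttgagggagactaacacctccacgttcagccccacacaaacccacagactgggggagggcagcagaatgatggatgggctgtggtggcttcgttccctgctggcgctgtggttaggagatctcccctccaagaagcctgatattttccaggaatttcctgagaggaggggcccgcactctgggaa
Fbxw7, chr3:84952028-84952210, plus strand: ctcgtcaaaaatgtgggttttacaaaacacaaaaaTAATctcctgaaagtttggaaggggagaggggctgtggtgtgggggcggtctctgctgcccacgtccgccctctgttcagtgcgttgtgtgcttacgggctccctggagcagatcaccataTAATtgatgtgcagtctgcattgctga
Gsg1, chr6:135247987-135248134, minus strand: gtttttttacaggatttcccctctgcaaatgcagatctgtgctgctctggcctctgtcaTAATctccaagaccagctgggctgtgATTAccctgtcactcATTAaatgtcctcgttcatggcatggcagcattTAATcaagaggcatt
Rarb, chr14:16575477-16575594, minus strand: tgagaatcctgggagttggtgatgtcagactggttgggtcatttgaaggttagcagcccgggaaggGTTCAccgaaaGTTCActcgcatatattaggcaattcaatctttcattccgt
Dnm3os, chr1:162217478-162217622, plus strand: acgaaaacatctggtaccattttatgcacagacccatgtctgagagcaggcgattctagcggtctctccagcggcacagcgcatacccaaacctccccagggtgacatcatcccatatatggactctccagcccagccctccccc

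The peak at the Gm35551 lncRNA start (chromosome 17, 84044524 to 84044818) had 6.43-fold enrichment, a value that the authors' peak caller gives at the summit, as it does for every fold below. Its summit was 106 bp from the start. The peak at an internal start of Fbxw7, a ubiquitin ligase subunit gene, had 4.85-fold enrichment and a summit 32 bp from that start, and the sequence shown holds 2 TAAT cores. The Gsg1 sequence holds 4 such cores at a 3.77-fold peak. The summit of that peak was 247 bp from the Gsg1 start, which lay outside the peak. Rarb encodes the retinoic acid receptor beta, whose internal promoter is a textbook target of retinoic acid through a direct repeat of half-sites. The Rarb peak (chromosome 14, 16575242 to 16575594, 3.47-fold) had its summit 34 bp from that start, and the nearest shared summit was 272 kb away. Its sequence holds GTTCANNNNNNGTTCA, found on either strand in 25 of 32619 RefSeq promoter windows (0.0766%). This motif was picked once the sequence had been seen. With 1 window counted per peak, TAAT on either strand was in 13 of the 19 windows and in 58.0% of all windows of that length, and the composite TGATNNAT of HOX proteins and their TALE partners was in 3 of the 19 and in 8.79% of all. The printed Gm35551 stretch holds 1 such composite and no TAAT, and the Rarb stretch holds 1 TAAT core that is not in capitals. A match is a description of these letters and not a binding site.

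The Dnm3os peak (chromosome 1, 162217478 to 162217818, 3.07-fold) covered the start of a lncRNA that carries the mesenchymal microRNA gene Mir199a-2 inside the Dnm3 gene. Its summit was 96 bp from the Dnm3os start and 287 bp from Mir199a-2. MicroRNA genes lay within 5 kb of the summit at 7 of the 1836 peaks. The closest was Mir30b, 17 bp from the summit of a 6.01-fold peak, followed by Mir34a, a target gene of p53, 32 bp from the summit of a 4.55-fold peak (chromosome 4, 150068258 to 150068535). The leading arm of miR-34a and both arms of miR-199a are printed, with the seed (bases 2 to 8) in capitals. They were picked as familiar RNAs whose gene overlapped a peak at least in part. The Mir199a-2 hairpin began at 162217814, at the edge of its peak, which ended at 162217818. No microRNA level was measured.
mmu-miR-34a-5p: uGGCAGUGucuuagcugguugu
mmu-miR-199a-5p: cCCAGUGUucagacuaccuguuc
mmu-miR-199a-3p: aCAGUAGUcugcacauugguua

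Replicate 1 only peaks were narrow and of modest fold. These values belong to the same peak calls that chose the regions, so they are a description with no test. Their fold ranged from 1.43 to 17.8 with a median of 3.64, against a median of 4.18 and a highest value of 58.1 among shared distal peaks. Only 4 (0.218%) reached 10-fold, against 210 of 1991 shared peaks (10.5%), and 300 (16.3%) reached 5-fold, against 37.8%. The median −log10 q, also the authors' value at the summit, was 10.4 against 17.0. Their median length was 340 bp (range 261 to 1772) against 532 bp (262 to 43667). Over 1000 bp in length were 27 (1.47%) against 397 (19.9%). A longer peak has more bases with which to overlap, so length and the lack of a partner are not independent.

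**Figure D1:**
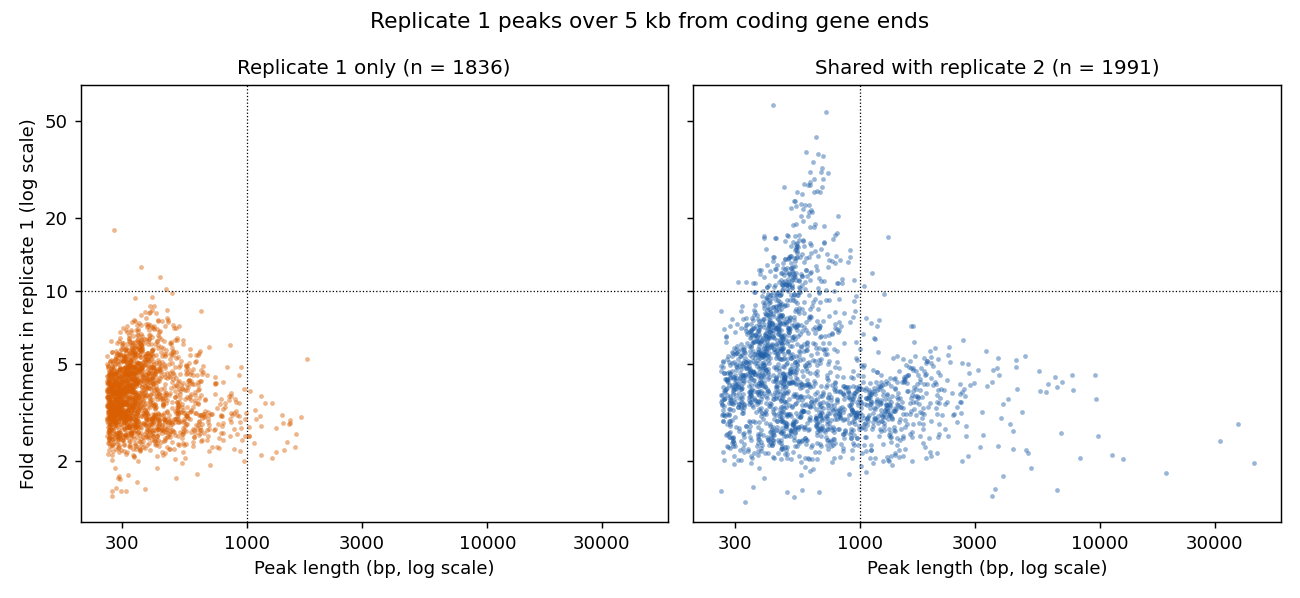
Fold enrichment against peak length, both on log scales, for replicate 1 only peaks (left, n = 1836) and shared peaks (right, n = 1991) over 5 kb from coding gene ends, with dotted lines at 1000 bp and 10-fold. The left cloud stops near 1772 bp and has 4 points above 10-fold, while the right cloud extends along both arms.

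At the edges of the rule, the replicate 1 only peak closest to a replicate 2 peak, 3 bp away, had Fgf14 as its assigned gene and 2.63-fold enrichment. The next gaps were 83 bp, near Srd5a2 (3.36-fold), and 166 bp, on chromosome 5 (4.25-fold). The shared distal peaks with the least overlap shared 4 bp near Klf15 (3.28-fold), 6 bp in Pcdh9 (2.61) and 30 bp in Tcf12 (2.46). Just beyond the 5 kb limit were peaks near Naaladl2 (5004 bp, 2.46-fold) and Gnl1 (5020 bp, 8.32-fold), and just short of it were peaks near Fbxo30 (4992 bp, 3.49-fold) and Rnf220 (4977 bp, 7.35-fold).

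The highest fold lay on the X chromosome, 40.7 kb from P2ry10, a G protein-coupled receptor gene (107047689 to 107047965), at 17.8-fold with a −log10 q of 248. The nearest replicate 2 summit was 689 kb away. Pdgfd, which encodes a platelet-derived growth factor ligand, held a 12.5-fold peak (chromosome 9, 6448435 to 6448795), with the nearest shared summit 2003 kb away. A peak of 11.4-fold (chromosome 2, 169142124 to 169142554) lay 187 kb from Zfp64 and 92.5 kb from a shared summit. Cntn4, a neural adhesion gene, held a 10.2-fold peak (chromosome 6, 106213006 to 106213462) and also had a shared peak, 259 kb away. These 4 are the peaks above 10-fold, and 1 of them shared its gene with a shared peak.

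The next 11 by fold, from 8.10 to 9.78, were near Cd28 (a T cell costimulatory receptor gene, 52.7 kb), Arhgap6, Pgm2l1, Xkr9, Kirrel3, Gnl1, Gdf3 and Med30, inside Xrcc4 (a DNA end-joining gene), 302 kb from Tnc and 225 kb from Ttc29. Of these 11 peaks, the one assigned to Xkr9, at 8.67-fold, had a gene that also had a shared peak, 16.9 kb away. Gdf3, a ligand gene of the TGF-beta family, had a peak of 8.22-fold at 5.87 kb whose −log10 q of 139 was far above that of peaks with a like fold, for example 54.3 at the 8.21-fold Med30 peak. A 299 bp peak 17.1 kb from Mrgprd, a sensory neuron receptor gene, had a fold of only 1.51 beside a −log10 q of 96.5. The longest were 1772, 1679 and 1600 bp, on chromosomes 1, X and 16, with 5.27-, 3.04- and 2.59-fold enrichment.

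The main comparison asked whether replicate 1 only peaks lay at the loci of shared peaks or at others. They lay near shared peaks at shares that did not differ by the tests below from those of shared peaks near each other. With a limit of 100 kb, most peaks of both kinds were away from any other shared peak. Each summit was given the coding gene that contained it (the shortest of several), or failing that the gene whose end was nearest within 100 kb. Inside a protein-coding gene were 777 of 1836 (42.3%, 95% Wilson interval 40.1 to 44.6), against 778 of 1991 shared peaks (39.1%, 37.0 to 41.2). Another 569 (31.0%) flanked a gene within 100 kb, and 490 (26.7%) had no coding gene within 100 kb. The difference inside genes was 3.24 percentage points (95% interval 0.130 to 6.35) and did not pass after adjustment over 3 tests (Fisher's exact test, two-sided, p = 0.0445, adjusted p = 0.133). Fisher's tests and intervals here treat peaks as independent, which neighbours are not, and cover neither replicate error nor depth.

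Of the 1346 replicate 1 only peaks with an assigned gene, 461 (34.2%, 31.8 to 36.8) had a gene with a shared peak. Of 1410 shared distal peaks with a gene, 461 (32.7%, 30.3 to 35.2) had a gene with a further shared peak, a difference of 1.55 points (−1.97 to 5.07, Fisher's exact adjusted p = 0.408). Within 100 kb of a shared summit lay 529 replicate 1 only peaks (28.8%, 26.8 to 30.9), against 549 shared peaks with a further shared summit in that range (27.6%, 25.7 to 29.6), a difference of 1.24 points (−1.61 to 4.09, Fisher's exact adjusted p = 0.408). On a regular grid of positions that meet the same distance rule, 20.8% of assignable positions belonged to a gene with a shared peak and 14.5% of positions were within 100 kb of a shared summit. Both kinds of peak were above the grid. Distances to a shared summit were taken throughout to all 2165 shared peaks on these chromosomes, which include those within 5 kb of gene ends. The grid counts assembly gaps and unmappable bases, which can hold no peak, so it is a description and was not tested.

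By either measure 672 of the 1836 (36.6%, 34.4 to 38.8) were at a shared locus, and 1164 (63.4%, 61.2 to 65.6) had neither a shared peak at their gene nor a shared summit within 100 kb. For shared distal peaks and further shared peaks the share with neither was 66.4% (64.3 to 68.4). The limit sets this share: within 500 kb of a shared summit lay 68.2% of replicate 1 only peaks, 63.7% of shared peaks and 51.4% of grid positions. Of the 777 replicate 1 only peaks inside a gene, 338 (43.5%) lay in a gene with a shared peak, and of the 569 flanking a gene 123 (21.6%) did, so a gene with several peaks counts several times. For shared peaks these shares were 37.3% and 27.1%, and on the grid 25.8% and 14.4%. The contrast between peaks inside and beside genes was not tested.

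**Figure D2:**
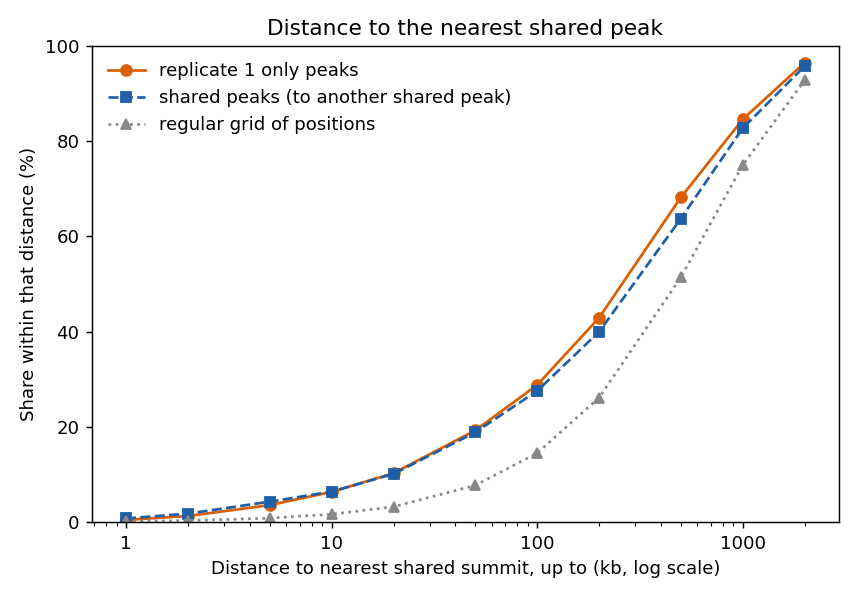
Share of replicate 1 only peaks (circles), shared peaks (squares, to a further shared peak) and grid positions (triangles) with a shared summit within the distance on the x axis (kb, log scale). At 100 kb the values are 28.8%, 27.6% and 14.5%, and both peak curves stay above the grid at every distance plotted, from 1 kb to 2000 kb.

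Only 24 replicate 1 only peaks (1.31%) had their summit within 2 kb of a shared summit. In 17 of the 24 the shared neighbour had the higher fold, with medians of 3.68 for the replicate 1 only peaks and 5.09 for the neighbours. Over all distal peaks the medians were 3.64 for replicate 1 only and 4.18 for shared peaks. The neighbours at 2700097O09Rik and Gm10654 each counted for more than 1 peak. Inside 2700097O09Rik, replicate 1 only peaks of 5.85-fold and 4.15-fold lay 955 and 1575 bp from a 54.4-fold shared peak (chromosome 12, 55060815 to 55061534). In Rorb, a nuclear receptor gene, a 4.23-fold peak was 766 bp from a shared peak of 4.78-fold, so near neighbours were not always much higher. Any replicate 2 summit, with or without a replicate 1 partner, lay within 1 kb of 21 replicate 1 only peaks (1.14%) and within 100 kb of 613 (33.4%).

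At the level of genes, 1106 of 21519 protein-coding genes (5.14%) had a replicate 1 only peak, and 1292 (6.00%) had a shared peak. The shared peaks in this count, and wherever genes are counted as having one, include those within 5 kb of gene ends, so the 2 gene sets follow different distance rules. Both kinds were found at 324 genes (1.51%), which is 29.3% of the first list and 25.1% of the second, and the other 782 genes (70.7%) had replicate 1 only peaks and no shared peak. Gene length moved with this overlap. The median length was 223 kb for genes with both, 79.6 kb for those with replicate 1 only peaks, 54.3 kb for those with shared peaks alone and 15.6 kb for the rest. Within length classes the overlap was still above the share of all genes. Of genes of 10 to 50 kb with a replicate 1 only peak 15.1% had a shared peak, against 3.79% of all genes that long. For genes over 200 kb it was 50.3% against 34.9%. Length within a class and the width of the flanks still differ, and their part was not tested.

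**Figure D3:**
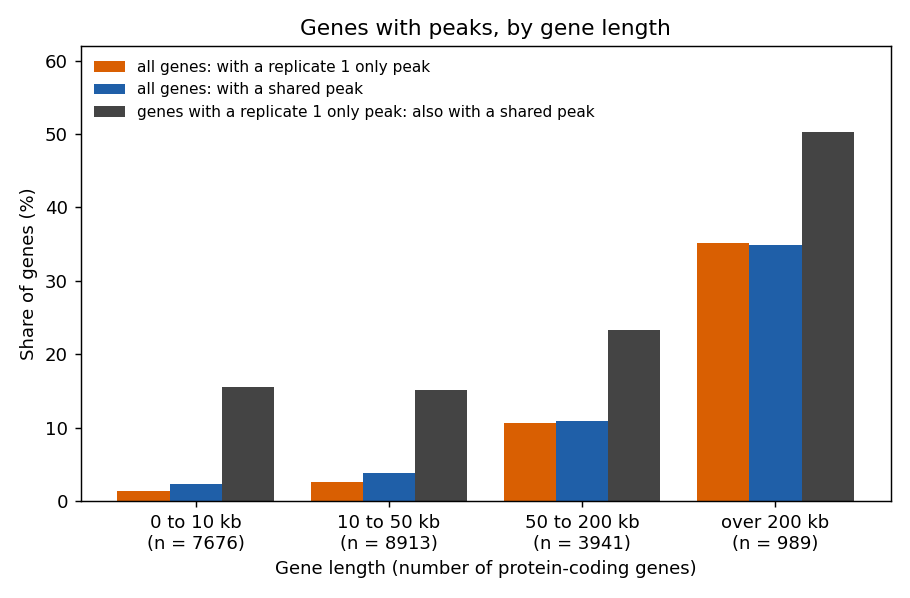
Bars show, for 4 classes of gene length, the share of all protein-coding genes with a replicate 1 only peak, the share with a shared peak, and the share of genes with a replicate 1 only peak that also have a shared peak. The first and middle bars rise with length, and the last bar is the tallest in each class, at 15.6%, 15.1%, 23.3% and 50.3%.

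Most assigned genes, 932 of 1106 (84.3%), had a single replicate 1 only peak, and 12 had 4 or more. Lrmda, a gene of 1037 kb on chromosome 14 linked to melanocyte differentiation, had 14, of which 13 lay inside it, with folds from 2.21 to 7.08. They were interspersed with 11 shared peaks of up to 13.4-fold. Arhgap15, a Rac GTPase-activating protein gene, held 6 of at most 4.16-fold and 1 shared peak of 5.91-fold. Genes with 4 replicate 1 only peaks and at least 1 shared peak included Bbs9 (up to 7.03-fold), Sema3a (5.83), Iqgap2 (5.81), Tshz2 (5.06), Dgkb (4.70) and Chst8 (4.14).

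Other genes had several replicate 1 only peaks and no shared peak. Pde4d, which encodes a phosphodiesterase that breaks down cyclic AMP, held 4 over its 1302 kb, at 5.36-, 6.54-, 4.11- and 3.61-fold, and the strongest was 1373 kb from the nearest shared summit. Arnt2, a bHLH-PAS transcription factor gene, had 4 of 2.58- to 5.16-fold, 2 inside and 2 past its higher-coordinate end. Rspo2, which encodes a Wnt agonist made by lung mesenchyme, held 3, of 4.89-, 7.20- and 2.74-fold, within 43058606 to 43136318 on chromosome 15. Kirrel3, Svep1, Ctnna3, Gtdc1, Arhgef28, Agbl1 and Plcl1 had 3 each, which is the full set of genes with 3 and no shared peak besides Rspo2. Ttc39b had 4 outside the gene, all of at most 3.51-fold.

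**Figure D4:**
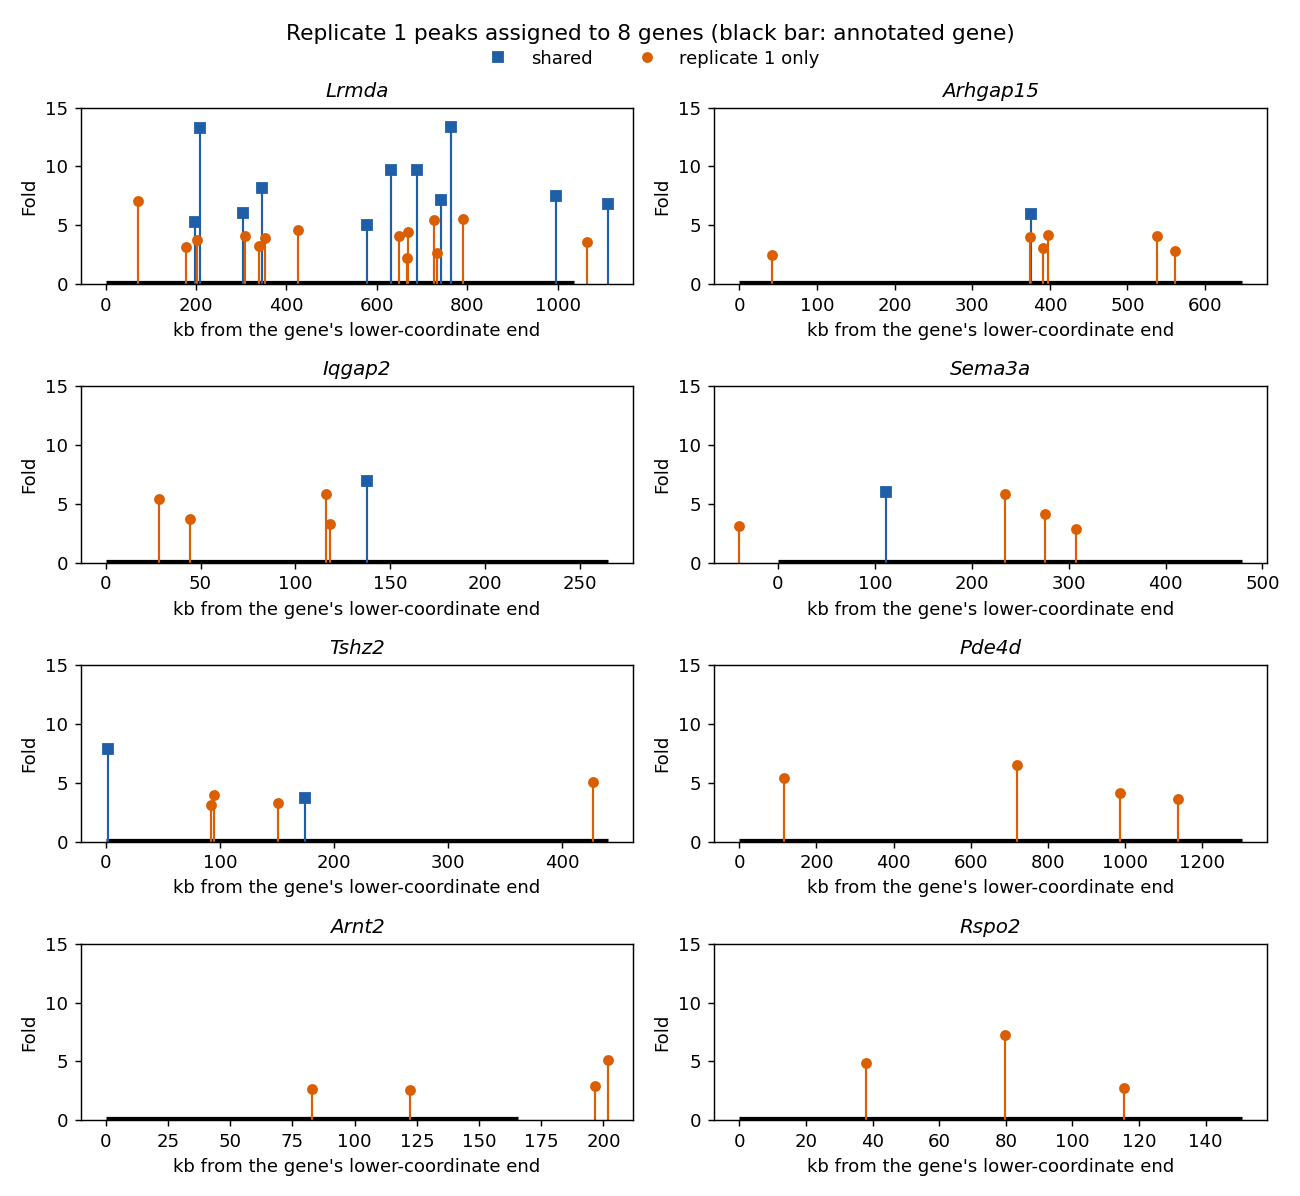
Each panel shows 1 gene as a black bar from its lower-coordinate end, with the summits of assigned peaks at their distance in kb and their fold as height. Replicate 1 only peaks are circles and shared peaks are squares. Lrmda shows 14 of the former among 11 of the latter, while Pde4d, Arnt2 and Rspo2 show circles alone.

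The genes were then read by function, using 21 lists with 614 matched genes. Of these 106 (17.3%) had a replicate 1 only peak and 112 a shared one, with 43 having both. That share cannot be set directly against the 5.14% of all coding genes, because the lists hold many long genes and genes with wide flanks. Of coding genes over 200 kb 35.2% had a replicate 1 only peak, and of those up to 200 kb 3.69% did. The number of distal peaks per Mb of positions assigned to the genes is therefore given for each list, and over all coding genes it was 0.878 for replicate 1 only peaks and 0.920 for shared distal peaks. Counts of list genes without a shared peak are to be read against 70.7% of all genes with a replicate 1 only peak, a share that is 80.3% for genes of at most 200 kb and 49.7% for longer ones. In the lists, a gene without a shared peak is one to which none was assigned, and a shared summit can still lie within 100 kb. Such a summit lay 44.4 kb from the Tbx2 peak, 47.0 kb from that of Lama4 and 52.1 kb from the strongest of Col13a1. For the Hoxb1 and Dusp6 peaks it was 55.8 and 68.3 kb. Lists carry no test here.

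In the list of lung mesenchyme transcription factors, 12 of 37 genes had a replicate 1 only peak, and 10 of the 12 had no shared peak. Of the 30 list genes of at most 200 kb 9 had a replicate 1 only peak, and of the 7 longer ones 3 did. Over all genes with such a peak, the share without a shared peak was 80.3% and 49.7% in these length classes. The density was 1.93 replicate 1 only peaks per Mb, the same as for shared peaks. Tbx2, a T-box gene of the growing lung mesenchyme, had a peak 7.37 kb away with 5.08-fold enrichment (chromosome 11, 85849173 to 85849471). Foxf1, the hedgehog-dependent forkhead factor of lung mesenchyme, had one of 4.79-fold at 81.4 kb (chromosome 8, 121002832 to 121003173). Gata4 held one of 4.16-fold, and Twist2, at 5.53-fold, was assigned at 99.9 kb, just inside the limit. Tshz2 and Ebf2 were the 2 with both kinds, and the 4.06-fold Ebf2 peak was 2.85 kb from a shared summit.

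Hoxb1 was the only 1 of 39 Hox genes with a replicate 1 only peak, at 39.5 kb with 3.49-fold enrichment (chromosome 11, 96407574 to 96407885), and 4 others had shared peaks. With 0.446 Mb of positions assigned to the Hox genes, the density was 2.24 per Mb against 4.48 for shared peaks, on 1 and 2 peaks.

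Among signalling ligands and receptors, the FGF list had 6 of 22 genes with a replicate 1 only peak, none of which had a shared peak, and 5 of the 6 were genes of at most 200 kb, where 80.3% of all genes with a replicate 1 only peak had no shared one. Fgfr1, a receptor of FGF ligands, held one of 4.68-fold (chromosome 8, 25546880 to 25547190). Fgf18, a ligand gene of lung mesenchyme, had one 11.8 kb away (3.75-fold), and the feedback inhibitor genes Spred1 and Dusp6 had peaks of 3.06- and 2.97-fold. The 6 also included Fgf14, whose 2.63-fold peak lay only 3 bp from a replicate 2 peak. The list's density was 1.72 per Mb against 0.490 for shared peaks, which rests on 7 and 2 peaks. In the Wnt list 5 of 42 genes had one (1.41 per Mb against 1.21), led by Rspo2 at 7.20-fold. The receptor genes Ror1 (5.85-fold) and Ror2 (4.75) also had shared peaks, and the coreceptor gene Lrp6 (4.03) did not.

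Of 39 BMP and TGF-beta genes, 5 carried a replicate 1 only peak: the receptor genes Bmpr1b (6.53-fold, with a shared peak of 8.68-fold), Tgfbr1 (5.23, at 23.1 kb) and Tgfbr3 (3.33), and the ligand genes Bmp7 (4.61, inside the gene) and Bmp3 (3.80). The density was 1.17 per Mb, as for shared peaks. Of 19 retinoic acid genes 3 did (1.5 per Mb against 1.0), all encoding receptors: Rxrg (5.51-fold), Rara (4.40) and Rarb, which also had a shared peak and whose sequence is printed above. In the hedgehog list 3 of 16 had one (1.40 per Mb against 2.80). Gas1, a hedgehog coreceptor gene, had a 5.15-fold peak 74.4 kb away and no shared peak assigned to it. A shared summit lay 42.1 kb from the Gas1 peak. The receptor gene Ptch1 (2.92-fold) and the effector gene Gli2 (3.60-fold, 5.67 kb from a shared summit) had both. In the Notch list (2.25 per Mb against 0.450, on 5 peaks and 1) Maml2 (4.72-fold) and Hes1 (2.42) had replicate 1 only peaks alone and Maml3 (4.36) had both.

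Of 45 extracellular matrix genes, 12 had a replicate 1 only peak, 9 of them with no shared peak. Of the 12, 11 were genes of at most 200 kb, where 80.3% of all genes with a replicate 1 only peak had no shared one. The density was 2.02 per Mb against 1.30 for shared peaks, on 14 and 9 peaks. Col6a1 (6.35-fold, 24.7 kb), Col13a1 (5.89), Col4a3 (5.73, inside the gene) and the laminin gene Lama4 (4.00) were the strongest without a shared peak. Col14a1 (5.82) and Col5a2 (4.58) had both. Smooth muscle genes Cald1 (4.87-fold) and Itga8 (3.48), 2 of 18, both also had shared peaks (1.30 per Mb against 3.89). In the cartilage list 6 of 25 had one (1.60 per Mb against 2.51), with Sox9, a regulator of cartilage and of distal lung epithelium, at 6.14-fold and 19.2 kb (chromosome 11, 112806782 to 112807255). All 5 list genes over 200 kb had one, against 35.2% of all genes that long, and 1 of the 20 shorter genes did. Sox9 and Runx1 (3.66) had no shared peak. The other 4 had both kinds, among them Trps1 (4.93) and Sox5 (4.14).

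Genes of other cell types of the lung varied. Sox9 was the only 1 of 29 genes in the lung epithelium list, where the density was 0.362 per Mb against 1.09. Endothelial and pericyte genes had 6 of 29 (1.74 per Mb against 1.24), among them the ETS factor genes Fli1 (6.47-fold), Ets1 (4.25) and Erg (5.67, with a shared peak), the angiogenic ligand genes Vegfa (3.25) and Angpt1 (3.42, with a shared peak), and Cdh5, which encodes VE-cadherin, with a long peak of 1511 bp and 2.86-fold. Of 23 blood and immune genes Kit did (3.24-fold, 73.8 kb), at 0.772 per Mb for both kinds of peak, and none of 30 ribosomal protein genes did, with 0.176 Mb of positions assigned to them.

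In the synaptic and neuronal adhesion list 19 of 44 genes had one, all of them among the 39 genes over 200 kb (35.2% of all genes that long had one), and the density was 0.531 per Mb against 0.490, both below those over all coding genes. Of these 19, 11 also had a shared peak. They included Cntn4 and Ntm (7.15-fold) with both and Kirrel3 (8.37), Ctnna3 (5.93), Cntn6 (4.52) and Cntnap4 (3.95) without. Axon guidance genes had 8 of 42, again all over 200 kb, at 0.809 per Mb against 1.37 for shared peaks, and 6 of the 8 also had a shared peak. Epha3 (6.22-fold) and Sema3a (5.83) led those with both, and Sema3e (4.64) and Efna5 (4.34) were the 2 without. Cadherins and protocadherins had 6 of 31 (0.502 per Mb for both kinds), with Pcdh7 (6.12-fold), Pcdh15 (4.07), Cdh20 (3.97) and Cdh17 (3.47) without a shared peak and Pcdh9 (4.76) with both. Phosphodiesterase genes had 4 of 21 (1.17 per Mb against 1.5), among them Pde4d, Pde9a (3.10) and Pde7a (3.09) without a shared peak and Pde11a (4.14) with both. Nuclear receptor genes had 4 of 34 (0.791 per Mb against 0.474), Rora (4.83), Nr3c2 (4.42) and Ppara (2.69) without and Rorb with both.

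**Figure D5:**
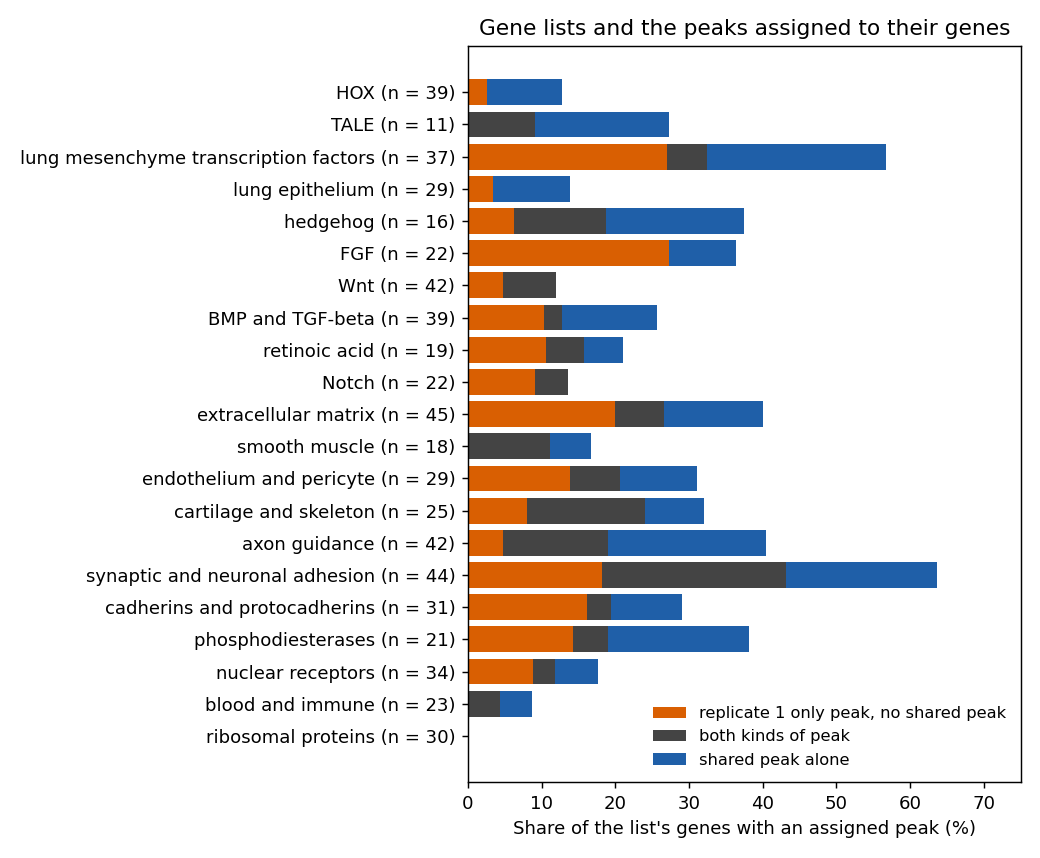
Each bar gives the share of a list's matched genes with a replicate 1 only peak and no shared peak, with both kinds, and with a shared peak alone (x axis in percent). The FGF list has 6 genes of the first kind and none of the middle kind, 5 of them of at most 200 kb, and the axon guidance list has 2 and 6, all over 200 kb. Among the 6 FGF genes is Fgf14, whose peak was 3 bp from a replicate 2 peak.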

How the data were processed

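ChIP-seq peaks were analysed from 2 anti-FLAG immunoprecipitates. The authors deposited 1 list per immunoprecipitate, called per sample. Per the submitters' processing notes, tools included Bowtie2 2.5.2 and MACS3 3.0.1 with mm10, while settings, control and filters were not given. The authors deposited fold enrichment as a ratio at the summit, the summit p-value and q-value as −log10, and a score that was not used. The lists give no counts, so depth is unknown.

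Genes came from RefSeq for GRCm38.p6. On chromosomes 1 to 19 and X, 340 genes starting below 3 Mb, taken as scaffold positions, were left out, leaving 49210, of which 21519 are protein-coding. Grid positions were 2000 bp apart. Shares carry 95% Wilson intervals, differences Newcombe intervals, and Fisher's exact tests were two-sided with Benjamini-Hochberg adjustment over 3 tests (Python 3.11.15, scipy 1.17.1), after a check on simulated peaks. Groups followed the sample titles. The regions, lists and tests were chosen with earlier results of these data known.

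Genes named are those at the 15 highest folds among peaks of at most 1000 bp, the 10 genes with most peaks, all Hox genes with a peak (TALE genes, also in the rule, are not reported here), up to 4 genes without and 2 with a shared peak per list by fold, and the 3 highest −log10 q and 3 longest peaks. Other names, including those beside printed sequences, at the edges of the rule, among genes with 3 peaks and Ttc39b, were chosen after values were seen. Alternatives covered the threshold, peak length, overlap, gene distance, gene set and assignment.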

Additional observations from a re-analysis of the deposited data

Results flagged for a closer look

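Replicate 1 only peaks also occurred outside the chromosomes analysed, in data that no comparison above used. There were 3 on the Y chromosome, with 2.52- to 2.84-fold enrichment, and 13 on unplaced or alternative scaffolds, with 1.36- to 7.56-fold. No input was analysed here, so background in these places was not measured.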

How the results depend on the processing

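None of the 3 comparisons passed after adjustment in the main setting. The excess inside genes passed with a limit of 1 kb from gene ends (43.1% against 39.2% of shared peaks, Fisher's exact adjusted p = 0.0426) and with all RefSeq genes (51.8% against 47.3%, adjusted p = 0.0250). It did not pass under the other 6 tested settings (Fisher's exact adjusted p from 0.0575 to 0.664), and with peaks of at most 1000 bp it shrank to 42.4% against 41.4%. With a replicate 2 peak within 1000 bp counted as a partner, direction turned for the share at genes with a shared peak (33.8% against 33.8%, Fisher's exact adjusted p = 1) and for the share within 100 kb (28.3% against 28.7%). With a distance limit of 10 kb it turned too (6.37% against 6.43%). No other setting changed a direction or a call of these 2. The difference at genes with a shared peak widened with assignment within 10 kb, to 36.4% against 31.1%, and did not pass (Fisher's exact adjusted p = 0.0634). With host genes only it was 38.0% against 32.5% and did not pass either (Fisher's exact adjusted p = 0.0667). The share of genes with replicate 1 only peaks that also had a shared peak moved to 26.3% with −log10 q of at least 5 in both lists, 26.6% with reciprocal overlap of 50%, 23.1% with all RefSeq genes and 37.6% with assignment within 1000 kb, and ran from 27.2% to 31.5% in the other 7 settings. List genes with a replicate 1 only peak numbered 106 in the main setting. They fell to 68 with host genes only, 71 with assignment within 10 kb and 74 with all RefSeq genes. With assignment within 1000 kb they rose to 146. Without replicate 2 all 3827 distal replicate 1 peaks would count, of which 40.6% lay inside genes, and without replicate 1 none exist. No paired analysis was possible because the inputs, which share replicate numbers with the immunoprecipitates, were not analysed here. Without depth, peaks just below the replicate 2 threshold cannot be counted.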

Other observations

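Replicate 1 only peaks formed small groups. With summits at most 50 kb apart counted as 1 group, 1514 stood alone, 128 groups had 2, 18 had 3 and 3 had 4. A group of 4 covered 5.86 kb on chromosome 8 (70976672 to 70982526, 2.70- to 2.96-fold), nearest to Gm10654, with a shared peak of 3.69-fold among them. Groups of 4 (71368530 to 71441087) and 3 (71234185 to 71255655) lay in a gene desert of chromosome 7, their midpoints 673 kb from Mctp2 and 660 kb from Gm44812, with folds from 3.10 to 4.87. A group of 3 over 7.92 kb on chromosome 8 included the 8.26-fold peak named above.

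By chromosome, the share of distal replicate 1 peaks without a partner ran from 38.9% on X (51 against 80 shared) and 42.2% on chromosome 6 (87 against 119) to 52.0% on chromosome 13 (105 against 97). The density on X was the lowest, 0.304 per Mb, and shared peaks were also sparsest there (0.477 per Mb). Outside protein-coding genes, 170 of 1059 replicate 1 only peaks (16.1%, 14.0 to 18.4) lay inside a lncRNA gene, against 170 of 1213 shared peaks (14.0%, 12.2 to 16.1). These differences were not tested.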
